A study of Arabidopsis thaliana with 6 samples.

Results

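The 46 genes described here make, move and break down glucosinolates in Arabidopsis thaliana. They were chosen for these known roles by their gene identifiers, with earlier results of these data known. Counts for 45 of them were analysed, among 32833 genes in all, and AOP2 (AT4G03060) was not analysed here. Glucosinolates are sulfur-containing defence compounds of the cabbage family. Aliphatic glucosinolates come from methionine, whose side chain is first lengthened, and indolic glucosinolates come from tryptophan. Intact glucosinolates are stored apart from myrosinases, the enzymes that cut them, and breakdown starts when tissue damage brings both together.

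The samples were whole seedlings of wild type Col-0 and of amiRNA-VQ1,10, with 3 libraries each. Col-0 is the standard laboratory accession, and amiRNA-VQ1,10 holds a designed small RNA whose name points to VQ1 and VQ10 as targets, members of a plant protein family whose partners include WRKY transcription factors. Per the labels both genotypes grew on MS medium with 1% sucrose in 21% oxygen, in days of 16 h light (150 µmol photons m-2 s-1) and 8 h darkness, and were taken at day 14, 4 h after lights on. The labels give neither the promoter of the small RNA nor how many independent lines were used, and the sampled tissue was the whole seedling, so fewer cells of a type and less RNA per cell cannot be told apart.

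Counts over genes were 926209 to 1329817 per library. VQ1, named in the construct, had 5, 1 and 2 counts in Col-0 and 0 in each amiRNA-VQ1,10 library, and VQ10 had 1 count in all, so the labels could be checked only weakly. The 3′ RNA-seq assay reads transcript ends, whatever the length of the transcript, and levels of different genes are therefore set side by side as CPM, counts scaled by TMM to a common library size. The 5 leaf markers summed to 17074 to 17463 CPM in Col-0 and to 18158 to 19401 CPM in amiRNA-VQ1,10, ranges that did not overlap, and none of the 5 passed the test. The 8 root markers summed to 132 to 171 CPM in Col-0 and to 101 to 155 CPM in amiRNA-VQ1,10. The 5 markers listed for guard and myrosin cells were FAMA, MYB60, SLAC1, KAT1 and MPK12. They summed to 62.7 to 80.8 CPM and to 56.8 to 70.9 CPM, a sum that does not separate these cell types. The 5 flower and seed markers summed to 10.8 to 25.3 CPM and to 7.79 to 14.0 CPM.

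The comparison asks how the glucosinolate genes of amiRNA-VQ1,10 differ from those of wild type in normoxia. Of the 45 genes 40 had enough counts to be tested, and 0 passed in either direction (quasi-likelihood test of edgeR, p adjusted by Benjamini-Hochberg over 12701 genes, threshold 0.05). Over all tested genes 13 passed, a background of 0.102%, with 0.0236% higher and 0.0787% lower in the line. At an unadjusted p under 0.05 there was 1 of the 40, FMOGS-OX3, against 6.02% of all tested genes. By DESeq2 and limma-voom 0 of the 40 passed as well, against backgrounds of 0.0472% and 0.063%. At an unadjusted p under 0.05 there were 0 and 2 of the 40 by these tools, against 1.76% and 5.98%. The log2 fold changes, amiRNA-VQ1,10 over Col-0, lay between -0.36 and 0.26, with 18 above 0 and 22 below. Their median was -0.020, and that of all tested genes was 0.0036.

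A p that misses the threshold does not show equal levels, so the 95% interval of each difference was taken from the same fit. All 40 intervals lay within 2-fold either way, as did 88.1% of the intervals of all tested genes. For 37 of the 40 the interval lay within 1.5-fold, against 47.4% of all tested genes. The exceptions were CYP79F2, CYP79B3 and GTR2, the 3 least abundant members tested. The tested members were abundant, with a median of 147 CPM against 29.1 CPM over all tested genes, and abundance narrows an interval. Between 73.7 and 221 CPM, the middle range of the members, all 20 members and 94.6% of all 1892 genes had an interval within 1.5-fold.

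**Figure D1:**
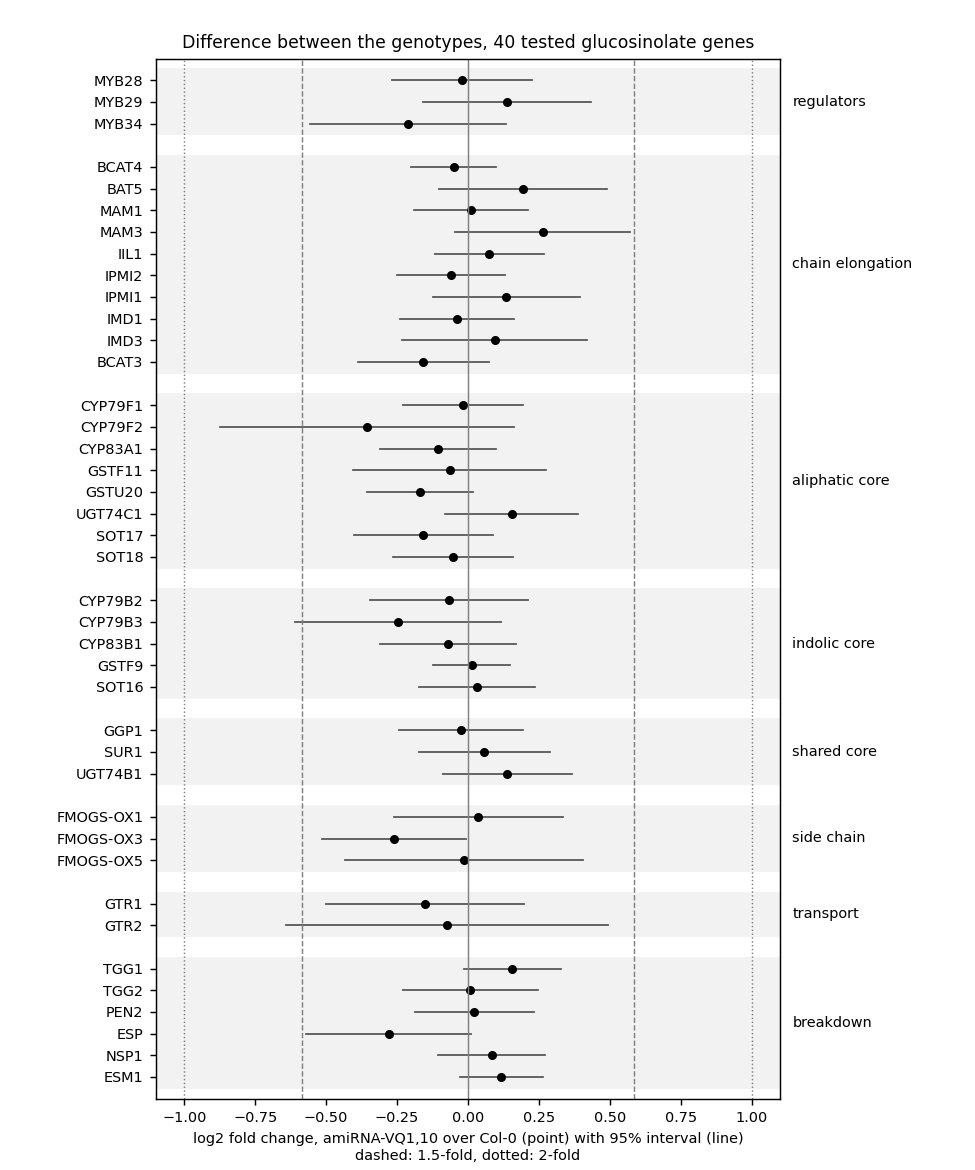
Log2 fold change of the 40 tested glucosinolate genes (amiRNA-VQ1,10 over Col-0, x axis) with its 95% interval, grouped by role. All 40 intervals lie inside the dotted lines at 2-fold, and 37 lie inside the dashed lines at 1.5-fold.

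The transcription factors that switch the pathway on belong to the R2R3-MYB family. MYB28 (AT5G61420) and MYB29 (AT5G07690) are the main activators of the aliphatic branch, with MYB76 (AT5G07700) as an accessory factor. MYB28 stood at 152, 139 and 176 CPM in the Col-0 libraries and at 166, 132 and 158 CPM in amiRNA-VQ1,10. The ranges overlapped, with the highest value in Col-0 replicate 3 and the lowest in amiRNA-VQ1,10 replicate 2. Its log2 fold change was -0.022 ± 0.12 (SE, n = 3 per genotype; 95% interval -0.27 to 0.22, edgeR adjusted p = 0.993). MYB29 had 67.9, 68.5 and 76.0 CPM in wild type and 85.8, 62.3 and 83.1 CPM in the line, again with overlapping ranges, and a log2 fold change of 0.14 ± 0.14 (95% interval -0.16 to 0.43, edgeR adjusted p = 0.961). MYB76, the next gene to MYB29 on the chromosome, had only 2, 5 and 1 counts in Col-0 and 2, 4 and 6 counts in amiRNA-VQ1,10. Pooled over a genotype this was 2.25 CPM (exact Poisson 95% interval 0.972 to 4.44) in Col-0 and 3.87 CPM (2.0 to 6.76) in amiRNA-VQ1,10, too few counts to pass the filter.

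Among the activators of the indolic branch MYB34 (AT5G60890) was the one with enough counts to test. It stood at 61.0, 46.9 and 65.2 CPM in Col-0 and 52.8, 55.6 and 41.1 CPM in the line. The 2 sets overlapped and amiRNA-VQ1,10 replicate 3 was the lowest library (log2 fold change -0.21 ± 0.17, 95% interval -0.56 to 0.13, edgeR adjusted p = 0.928). MYB51 (AT1G18570), the other main activator of this branch, had 2, 4 and 3 counts in Col-0 and 3, 2 and 2 counts in amiRNA-VQ1,10. Its pooled level was 2.53 CPM (exact Poisson 95% interval 1.16 to 4.81) in wild type and 2.26 CPM (0.907 to 4.65) in the line, far below that of MYB34 in both genotypes. MYB122 (AT1G74080), known as a minor factor, had 4, 0 and 1 counts in Col-0 and 0, 1 and 0 in amiRNA-VQ1,10. MYB51 and MYB122 had too few counts to test, and the smallest difference that this depth could show was not calculated.

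Chain elongation adds methylene groups to methionine before the core structure is built. All 10 genes of this step were tested, with mean levels of 55.5 to 677 CPM, and 0 passed. Of the 10 fold changes 6 were above 0 and 4 below, with a median of 0.042. BCAT4 (AT3G19710), the aminotransferase that starts the process, was the most abundant. It stood at 707, 673 and 688 CPM in Col-0 and 664, 669 and 663 CPM in amiRNA-VQ1,10. All 3 amiRNA-VQ1,10 values lay just below the lowest Col-0 value. The means were 689 ± 17.3 and 665 ± 3.04 CPM (SD, n = 3), with a log2 fold change of -0.050 ± 0.072 (95% interval -0.20 to 0.099, edgeR adjusted p = 0.976). Ranges that do not overlap occurred in 3 of the 40 members, and in 10.4% of all tested genes.

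IIL1 (AT4G13430), the large subunit of isopropylmalate isomerase, had 352, 377 and 428 CPM in wild type and 441, 406 and 371 CPM in the line. These ranges overlapped (log2 fold change 0.075 ± 0.093, 95% interval -0.12 to 0.27, edgeR adjusted p = 0.969). Its small subunits IPMI2 and IPMI1 averaged 329 and 107 CPM over the 6 libraries. IMD1 and IMD3, the isopropylmalate dehydrogenases, averaged 214 and 55.5 CPM, BCAT3, an aminotransferase at the end of the cycle, 153 CPM, and BAT5, the transporter of the intermediates across the plastid envelope, 73.1 CPM. Of these 6 genes the largest log2 fold change was that of BAT5, at 0.19 ± 0.14 (SE, edgeR adjusted p = 0.917).

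The condensing enzymes are MAM1 (AT5G23010), which makes short chains, and MAM3 (AT5G23020), which can make all lengths. MAM3 was among the 5 members with the smallest p, at 67.9, 67.7 and 87.8 CPM in Col-0 and 95.2, 101 and 72.6 CPM in amiRNA-VQ1,10. Replicates 1 and 2 of the line were above every wild type library, and replicate 3 lay among the wild type values. The log2 fold change was 0.26 ± 0.15 (95% interval -0.047 to 0.57, unadjusted p = 0.0922, edgeR adjusted p = 0.858). MAM1 stood at 245 ± 5.17 CPM in Col-0 and 246 ± 24.9 CPM in the line (SD, n = 3), with a log2 fold change of 0.0098 ± 0.097.

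**Figure D2:**
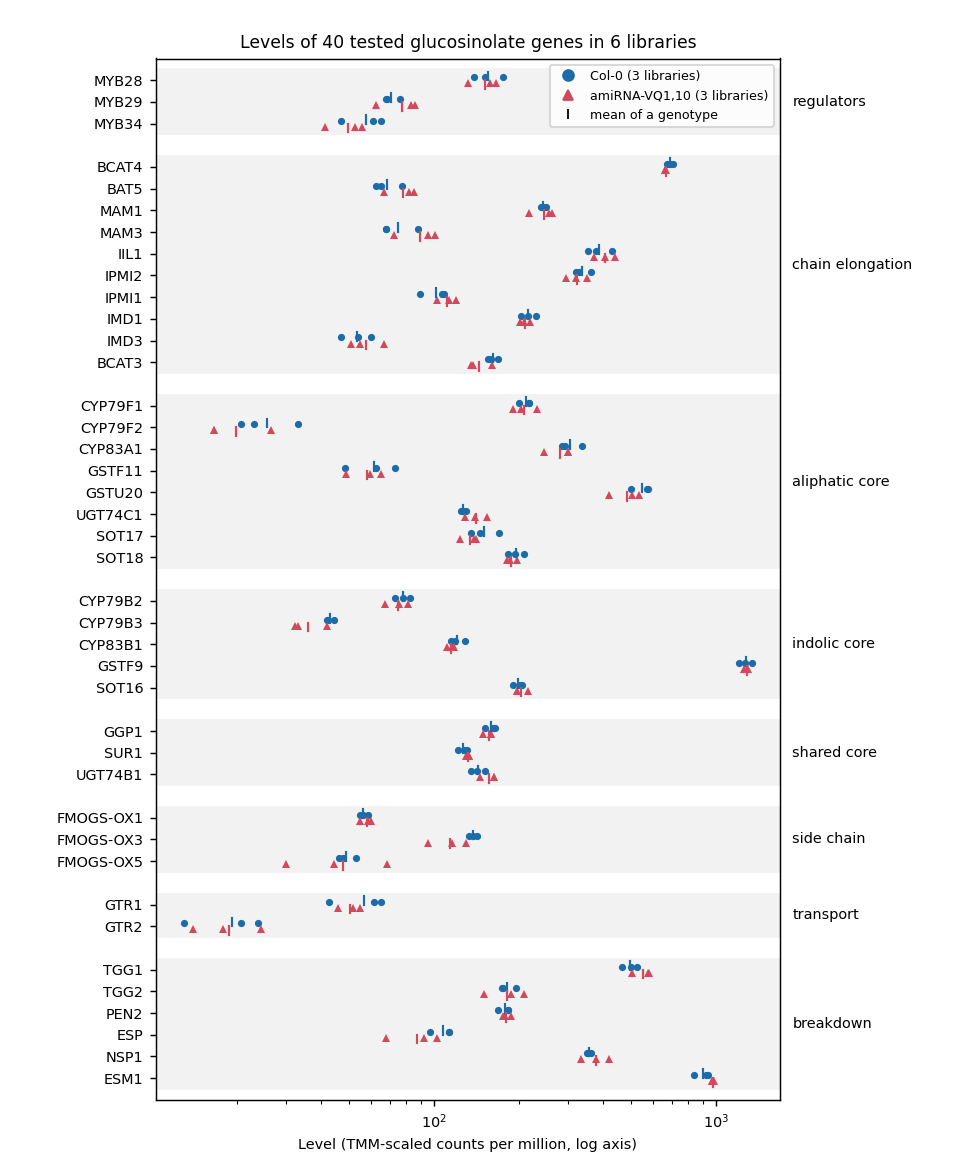
Level of the 40 tested glucosinolate genes in each library (CPM, log axis), grouped by role, with circles for the 3 Col-0 libraries, triangles for the 3 amiRNA-VQ1,10 libraries and short bars for the means. The members span 19.0 CPM (GTR2) to 1283 CPM (GSTF9), and in 37 of the 40 the circles and triangles overlap in range.

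The core structure of aliphatic glucosinolates is built from the lengthened methionine by cytochromes P450, glutathione transferases, a glucosyltransferase and sulfotransferases. All 8 genes of this group were tested and 0 passed, with 7 fold changes below 0 and 1 above, and a median of -0.085, which ran from -0.19 without Col-0 replicate 2 to -0.032 without Col-0 replicate 1. GSTU20 (AT1G78370), a glutathione transferase, had 574, 501 and 569 CPM in Col-0 and 504, 419.6 and 533 CPM in amiRNA-VQ1,10. The lowest value was that of amiRNA-VQ1,10 replicate 2, and the other libraries of the line fell within the wild type range. Its log2 fold change was -0.17 ± 0.090 (95% interval -0.36 to 0.017, unadjusted p = 0.0729, edgeR adjusted p = 0.857), and without amiRNA-VQ1,10 replicate 2 it was -0.078. CYP83A1 (AT4G13770), the P450 that oxidises aliphatic aldoximes, had 293, 285 and 335 CPM in wild type and 299, 246 and 300.2 CPM in the line. The sets overlapped, again with amiRNA-VQ1,10 replicate 2 lowest (log2 fold change -0.10 ± 0.099, edgeR adjusted p = 0.953).

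CYP79F1 (AT1G16410) and CYP79F2 (AT1G16400), neighbours on the chromosome that make aldoximes from the elongated methionine, differed widely in level. CYP79F1 stood at 212 ± 9.85 CPM in Col-0 and 209 ± 20.8 CPM in the line, and CYP79F2 at 25.7 ± 6.53 and 19.9 ± 5.62 CPM (SD, n = 3). CYP79F2 had the lowest log2 fold change of the 40, -0.36 ± 0.25 (95% interval -0.88 to 0.16, edgeR adjusted p = 0.909), and overlapping ranges. Without amiRNA-VQ1,10 replicate 1 the value was -0.62, within a fit in which no member passed. The one member of the group above 0 was the glucosyltransferase UGT74C1, at 0.15 ± 0.11 (edgeR adjusted p = 0.918). The sulfotransferases SOT17 and SOT18, which complete the molecule, had log2 fold changes of -0.16 ± 0.12 and -0.053 ± 0.10, and the glutathione transferase GSTF11 one of -0.065 ± 0.17 (SE).

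For the indolic core 5 of 6 genes were tested and 0 passed, with 2 above 0 and 3 below (median -0.068). GSTF9 (AT2G30860), a glutathione transferase assigned to this branch, was the most abundant of all members. It had 1276, 1214 and 1342 CPM in Col-0 and 1306, 1264 and 1295 CPM in amiRNA-VQ1,10, with the values of the line inside the wild type range. The log2 fold change was 0.013 ± 0.066 (95% interval -0.12 to 0.15, edgeR adjusted p = 0.993). SOT16 (AT1G74100), the sulfotransferase of indolic glucosinolates, had 203, 192 and 205 CPM in wild type and 198, 198 and 216 CPM in the line, which overlapped (log2 fold change 0.033 ± 0.099, edgeR adjusted p = 0.989). CYP79B2 and CYP79B3, which turn tryptophan into its aldoxime, averaged 76.2 and 39.3 CPM, and CYP83B1, the next P450, 118 CPM. Their log2 fold changes were -0.068 ± 0.14, -0.25 ± 0.18 and -0.071 ± 0.12 (SE, edgeR adjusted p = 0.981, 0.909 and 0.979).

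CYP81F2 (AT5G57220), which hydroxylates indolic glucosinolates for antifungal defence, had 5, 0 and 2 counts in Col-0 and 0, 3 and 4 counts in amiRNA-VQ1,10. Pooled levels were 1.97 CPM (exact Poisson 95% interval 0.792 to 4.06) in wild type and 2.26 CPM (0.907 to 4.65) in the line, so the gene was barely present in both genotypes and was not tested.

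Both branches share the enzymes GGP1, SUR1 and UGT74B1. GGP1 (AT4G30530), a peptidase that trims the glutathione conjugate, had 163, 152 and 166 CPM in Col-0 and 160.3, 150.3 and 160.2 CPM in amiRNA-VQ1,10. UGT74B1 (AT1G24100), a glucosyltransferase, had 152, 135 and 143 CPM in wild type and 163, 146 and 164 CPM in the line. The ranges overlapped for both, and the log2 fold changes were -0.024 ± 0.11 and 0.14 ± 0.11 (SE, edgeR adjusted p = 0.992 and 0.928). SUR1, the C-S lyase, stood at 127 ± 4.66 and 133 ± 2.09 CPM (SD, n = 3), with a log2 fold change of 0.058 ± 0.11.

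Side chains are modified after the core is made, and the FMOGS-OX flavin monooxygenases oxidise their sulfur atom. FMOGS-OX3 (AT1G62560) had the smallest p of the 40 tested members. It stood at 142, 133 and 138 CPM in Col-0 and at 116, 95.7 and 130.4 CPM in amiRNA-VQ1,10. Every library of the line was below every wild type library, with replicate 2 the lowest and replicate 3 close to the wild type values. The means were 138 ± 4.43 and 114 ± 17.4 CPM (SD, n = 3), the log2 fold change was -0.26 ± 0.12 (95% interval -0.52 to -0.0078), and the unadjusted p of 0.0439 became 0.809 after adjustment (edgeR). Without amiRNA-VQ1,10 replicate 2 the log2 fold change was -0.16, and without replicate 3 of the line it was -0.37 (edgeR adjusted p = 0.952 and 0.428).

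FMOGS-OX1 (AT1G65860) had 58.3, 54.6 and 56.1 CPM in wild type and 54.7, 60.1 and 58.6 CPM in the line, nearly level in all 6 libraries (log2 fold change 0.036 ± 0.14, edgeR adjusted p = 0.992). FMOGS-OX5 had the widest relative spread of the tested members within the line, with 44.3, 30.1 and 68.3 CPM, against 47.9, 53.1 and 46.2 CPM in Col-0. Without amiRNA-VQ1,10 replicate 3 the median log2 fold change of the 3 tested side-chain genes was -0.37, against -0.014 with it. AOP3 (AT4G03050), a dioxygenase that makes hydroxyalkyl side chains, had 0 counts in every library. A count of 0 over the 6 libraries allows a level of up to 0.451 CPM, from 3 counts of the total.

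GTR1 (AT3G47960) and GTR2 (AT5G62680) import glucosinolates into cells and are needed to load them into seeds. GTR1 had 42.7, 61.6 and 65.2 CPM in Col-0 and 54.7, 45.6 and 51.6 CPM in amiRNA-VQ1,10. GTR2 had 13.1, 23.9 and 20.8 CPM in wild type and 17.9, 24.5 and 14.0 CPM in the line, the lowest mean level of the tested members. Both were lowest in Col-0 replicate 1, and their ranges overlapped. The log2 fold changes were -0.15 ± 0.17 and -0.074 ± 0.27 (SE; 95% intervals -0.50 to 0.20 and -0.64 to 0.49; edgeR adjusted p = 0.966 and 0.991). GTR2 overlaps a gene on the opposite strand with 282 counts over the 6 libraries, and reads of such a pair cannot be told apart where strand was not used in counting. The opposite-strand partners of IMD1, IMD3 and UGT74C1 had 177, 86 and 70 counts, and those of BCAT4, GSTF11, FMOGS-OX5 and GTR1 had 0 to 15.

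The breakdown genes encode myrosinases and the proteins that decide which products form. All 6 were tested and 0 passed, with 5 fold changes above 0 and 1 below (median 0.053). TGG1 (AT5G26000), the main myrosinase of leaves, had 528, 501 and 466 CPM in Col-0 and 578, 504 and 582 CPM in amiRNA-VQ1,10. Replicates 1 and 3 of the line were above every wild type library and replicate 2 lay within the wild type range. Its log2 fold change was 0.16 ± 0.083 (95% interval -0.015 to 0.33, unadjusted p = 0.0715, edgeR adjusted p = 0.857). The summed leaf markers were also higher in the line, as given above, and their part in this value was not tested. TGG2, the second leaf myrosinase, stood at 182 ± 12.1 and 183 ± 28.9 CPM, with a log2 fold change of 0.0077 ± 0.12, and PEN2, an atypical myrosinase that acts on indolic glucosinolates in living cells, at 179 ± 8.08 and 181 ± 6.58 CPM (SD, n = 3), with one of 0.023 ± 0.10.

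ESM1 (AT3G14210), a protein known to favour isothiocyanates over nitriles, was the second most abundant member. It had 928, 836 and 939 CPM in Col-0 and 973, 991 and 967 CPM in amiRNA-VQ1,10. All 3 values of the line were above the wild type values, by little, and the log2 fold change was 0.12 ± 0.071 (95% interval -0.029 to 0.26, edgeR adjusted p = 0.872). ESP (AT1G54040), the epithiospecifier protein that promotes nitriles and epithionitriles, went the other way in its means. It had 113, 96.96 and 113 CPM in wild type and 92.4, 67.9 and 102 CPM in the line, with the lowest value in amiRNA-VQ1,10 replicate 2 and overlapping ranges. Its log2 fold change of -0.28 ± 0.14 did not pass (95% interval -0.57 to 0.012, unadjusted p = 0.0590, edgeR adjusted p = 0.841), and its value was -0.14 without amiRNA-VQ1,10 replicate 2 and -0.41 without replicate 3 of the line. NSP1, a nitrile specifier protein, stood at 355 ± 5.28 and 377 ± 42.9 CPM, with a log2 fold change of 0.083 ± 0.091.

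Related genes shared their counts unevenly, and the division within a pair does not depend on scaling. CYP79F2 made up 13.2%, 10.3% and 8.71% of the counts of CYP79F1 and CYP79F2 in Col-0, and 10.2%, 8.02% and 7.54% in amiRNA-VQ1,10. MAM3 made up 22.1%, 21.7% and 26.0% of the MAM1 and MAM3 counts in wild type, and 26.6%, 31.8% and 22.1% in the line. For TGG2 within the TGG1 and TGG2 counts the shares were 25%, 28.1% and 27.3%, against 26.5%, 23.1% and 24.4%. The ranges of the genotypes overlapped in all 3 of these pairs.

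CYP79B3 had a mean share of 35.5% ± 1.37 in Col-0 and 32.4% ± 5.27 in the line, GTR2 25.2% ± 2.40 and 27.0% ± 7.08, and MYB76 3.00% ± 2.12 and 4.92% ± 2.43 (SD, n = 3). Two-sided exact permutation tests over the libraries of these 6 pairs gave p = 0.2 to 0.8 and adjusted p = 0.45 to 0.8, where 3 against 3 cannot go below 0.1. The largest differences of the means were 3.57 percentage points for MAM3 and -3.11 for CYP79B3, and without amiRNA-VQ1,10 replicate 2 these were 1.07 and -1.12. MYB29 with MYB76, MAM1 with MAM3, CYP79F1 with CYP79F2 and SOT16 with SOT18 are direct neighbours among protein-coding genes. Reads that matched more than 1 place are listed apart from the gene counts, so near-identical stretches of such pairs add to neither gene.

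**Figure D3:**
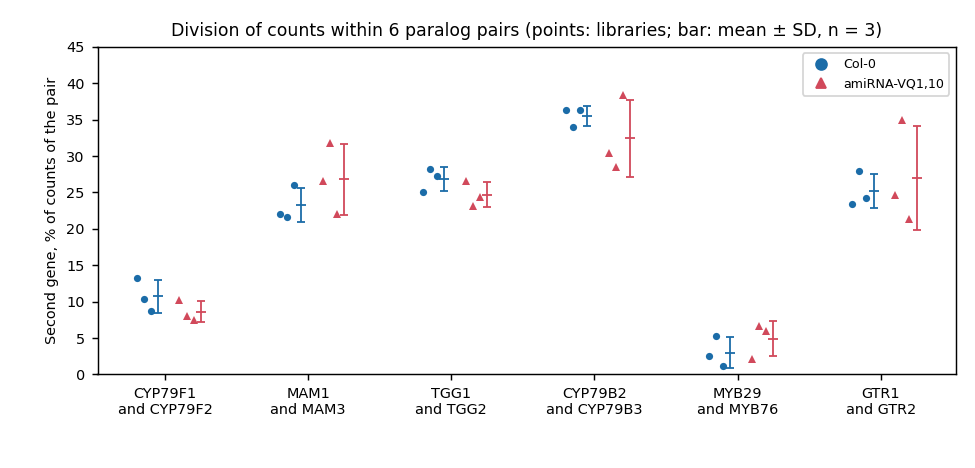
Share of the second gene in the counts of each of 6 paralog pairs (percent, y axis) by library, with mean ± SD (n = 3) beside the points, circles for Col-0 and triangles for amiRNA-VQ1,10. The smallest shares are those of MYB76 and CYP79F2, and the points of both genotypes overlap in each pair.

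Library by library, the pathway took a nearly constant share of the transcripts. The 45 genes summed to 0.885%, 0.841% and 0.900% of all gene counts in Col-0 and to 0.876%, 0.837% and 0.884% in amiRNA-VQ1,10. Counting error alone gave exact binomial 95% intervals such as 0.825% to 0.856% for Col-0 replicate 2 and 0.818% to 0.855% for amiRNA-VQ1,10 replicate 2, the lowest library of each genotype. The spread within a genotype was thus wider than the distance between the genotypes.

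By role, the mean deviation of a library from the 6-library mean stayed within 0.1 on the log2 scale for chain elongation, the indolic core, the shared enzymes and the breakdown genes. For the indolic core the highest value of the line, 0.0046, lay next to the lowest of Col-0, 0.0075. In the other roles the genotypes overlapped by this mean. Summed CPM, which weighs abundant genes more, gave another picture. The breakdown genes summed to 2280, 2161 and 2228 CPM in Col-0 and to 2374, 2313 and 2393 CPM in amiRNA-VQ1,10, ranges that did not overlap. The sums of the indolic core and of the other roles overlapped, and no sum was tested. The aliphatic core ranged from 0.18 in Col-0 replicate 1 to -0.17 in amiRNA-VQ1,10 replicate 2. Of the 6 libraries amiRNA-VQ1,10 replicate 2 was lowest over all tested members, at -0.085. This library had the fewest counts, 926209, and it stood apart on the first principal component of all genes (26.9% of the variance). Without it no member passed, 22 of the 40 fold changes were above 0 and 18 below, and the lowest was -0.29. The values of GSTU20, FMOGS-OX3, ESP and MAM3 were then smaller by more than 1.5 times, at -0.078, -0.16, -0.14 and 0.17. Others moved further from 0, among them TGG1 (0.16 to 0.22), MYB29 (0.14 to 0.26) and MYB34 (-0.21 to -0.29). The transporters varied most, from -0.38 in Col-0 replicate 1 to 0.27 in Col-0 replicate 2.

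**Figure D4:**
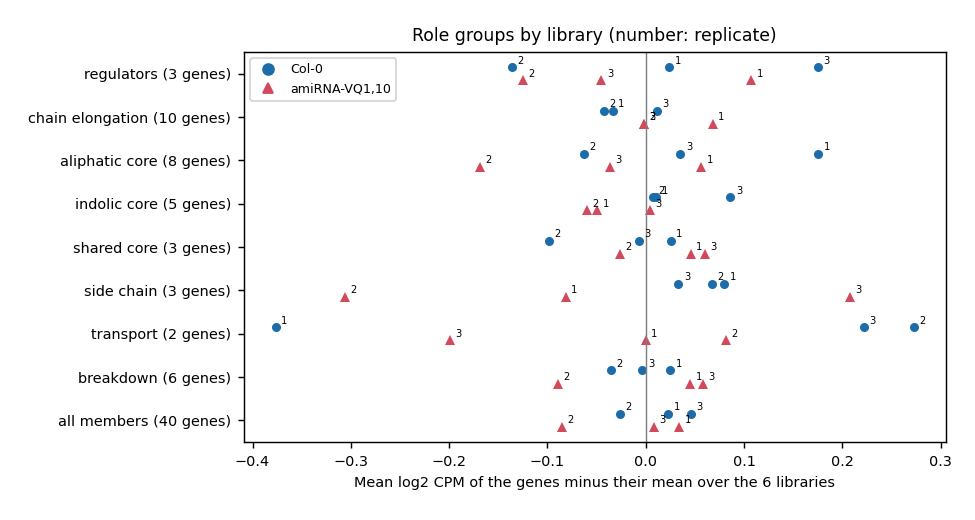
Mean log2 CPM of the genes of a role minus their mean over the 6 libraries (x axis), 1 point per library, with circles for Col-0, triangles for amiRNA-VQ1,10 and the replicate number beside each point. By this mean the genotypes overlap in every role but the indolic core, and amiRNA-VQ1,10 replicate 2 has the lowest value over all 40 tested members. By summed CPM, not shown here, the breakdown genes do not overlap and the indolic core does.

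Replicates of a genotype were close. The median coefficient of variation of the tested members was 6.28% in Col-0 and 9.58% in amiRNA-VQ1,10, against 13.7% and 15.5% over all tested genes. In the level range from 73.7 to 221 CPM the medians were 5.91% and 8.47% for the 20 members and 8.24% and 9.43% for all 1892 genes.

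A further 45 genes of the pathway were chosen for their known roles, from cofactor supply to further nitrile specifiers and regulators. Of these 33 were tested and 0 passed, with 17 fold changes above 0, 16 below and a median of 0.0039. At an unadjusted p under 0.05 there were 9 of the 33, against 6.02% of all tested genes (edgeR). The list was drawn up with earlier results of these data known, so this count is not independent of them. DESeq2 and limma-voom also called 0 of the 33, against 0.0472% and 0.063% of all tested genes. They had 5 and 8 of the 33 at an unadjusted p under 0.05, against 1.76% and 5.98%.

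The smallest p was that of SDI1 (AT5G48850), a gene induced by sulfur deficiency and known to repress aliphatic glucosinolate synthesis through MYB28. It had 25.3, 16.9 and 19.0 CPM in Col-0 and 33.9, 27.8 and 47.3 CPM in amiRNA-VQ1,10. The values of the line were all above those of wild type, with replicate 3 the highest, and the log2 fold change was 0.86 ± 0.23 (95% interval 0.38 to 1.34, edgeR adjusted p = 0.278). The RNA level of MYB28 did not differ beyond the replicate spread, as given above, and an action of SDI1 on the pathway was not tested. In a fit with no filter on low counts, SDI1 had an edgeR adjusted p of 0.0378, where 92 of all genes passed against 13 with the filter. SDI1 passed in no other alternative. Its adjusted p was 0.376 by limma-voom and 0.109 to 0.551 by edgeR with a library left out.

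The next were MBP1 (AT1G52040) and MBP2 (AT1G52030), myrosinase-binding proteins, and BGLU18 (AT1G52400), a β-glucosidase of endoplasmic reticulum bodies. MBP1 had 82.7, 36.2 and 44.3 CPM in wild type and 28.3, 22.3 and 35.0 CPM in the line, with Col-0 replicate 1 far above the other libraries. BGLU18 had 444, 347 and 354 CPM in wild type and 298, 254 and 330.0 CPM in the line, and MBP2 had 55.7, 34.6 and 40.7 and 28.3, 25.6 and 34.1 CPM. In all 3 genes, named for their small p, every library of amiRNA-VQ1,10 was below every Col-0 library. Of the 33 tested genes 4 were separated in this way and 1 in the other direction. Ranges did not overlap in 10.4% of all tested genes. The log2 fold changes of MBP1, BGLU18 and MBP2 were -0.89 ± 0.25, -0.37 ± 0.11 and -0.55 ± 0.20 (SE, edgeR adjusted p = 0.344, 0.344 and 0.600). Without Col-0 replicate 1 they were -0.47, -0.25 and -0.34 (edgeR adjusted p = 0.982, 0.968 and 0.991), so 1 library carried much of the MBP1 value. Of the flower and seed markers AG, AP3 and CRA1 also had their most counts in Col-0 replicate 1, at 4, 6 and 5. PI and CRU3 were highest in other libraries, and a link to MBP1 was not tested. MBP1 passed without Col-0 replicate 2 (log2 fold change -1.14, edgeR adjusted p = 0.0330), and with no filter MBP1 and BGLU18 passed (adjusted p = 0.00112 and 0.0266).

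Of the MYC factors that act with the MYB activators, MYC2, MYC3 and MYC4 had log2 fold changes of -0.042 ± 0.15, -0.21 ± 0.15 and -0.30 ± 0.14 (SE, edgeR adjusted p = 0.990, 0.909 and 0.809). BGLU30 (AT3G60140), a β-glucosidase that breaks down glucosinolates under sulfur deficiency and a gene induced in darkness, was not tested for lack of counts, and it was singled out after its values were seen. It had 5, 8 and 8 counts in Col-0 and 5, 35 and 32 counts in amiRNA-VQ1,10, high in replicates 2 and 3 of the line and at the wild type level in replicate 1. It passed with no filter and without amiRNA-VQ1,10 replicate 1 (edgeR adjusted p = 2.28e-06 and 0.000299).

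**Figure D5:**
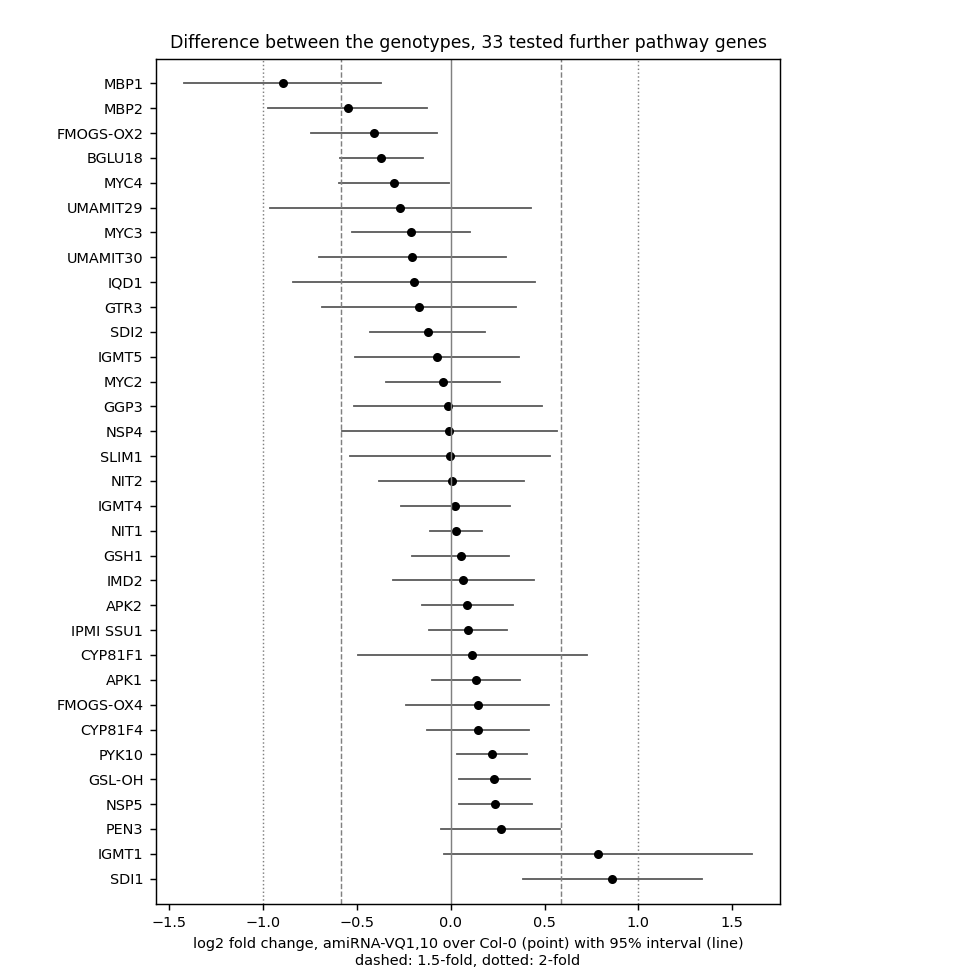
Log2 fold change (amiRNA-VQ1,10 over Col-0, x axis) with its 95% interval for the 33 tested further genes of the pathway, ordered by value, with dashed lines at 1.5-fold and dotted lines at 2-fold. MBP1 and SDI1 lie at the ends of the order, at -0.89 and 0.86, and 30 of the 33 intervals lie within 2-fold.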

How the data were processed

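Transcript counts were measured by 3′ RNA-seq in 6 libraries, from 1 µg of total RNA with an integrity number above 8 and primers with a molecular identifier of 6 bp, per the labels' protocols. Each deposited file gives the raw counts of 1 library. TAIR10 as build and STAR, HISAT2 2.0.4 and DESeq2 as tools come from the submitters' processing notes. No source used here gives the counting program, its strand setting or the use of the identifiers, so the exact Poisson and binomial intervals and the floors cover counting error only. Entries that name no gene (3.79% to 4.07% outside genes, 0.103% to 0.109% ambiguous, 4.40% to 5.45% not uniquely aligned) were left out. Gene names, neighbours and overlaps came from RefSeq TAIR10.1, which names 32548 of 32833 identifiers. Of the members 9 overlap another annotated gene. Promoter motifs and protein comparisons were planned and are not analysed here, since no sequence of the build TAIR10 was used.

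Genotypes were compared with edgeR 4.0.16 (quasi-likelihood, TMM, filterByExpr with a minimum count of 10 and minimum total of 15) in R 4.3.3, adjusted over 12701 genes (Benjamini-Hochberg, threshold 0.05). The SE was taken as the size of a log2 fold change divided by the root of its F statistic, and intervals of fold changes use the t distribution of the fit, so they include the spread between replicates. Library deviations use log2 CPM with a prior count of 2. Alternatives were other scalings, no filter, a strict filter (50 counts in 3 libraries), DESeq2 1.42.0, limma-voom (limma 3.58.1), a replicate block, organelle genes left out and each library left out. Values in every library are given for the 2 most abundant members of each role, the 5 with the smallest p, the MYB genes and untested members, and for the 4 other pathway genes with the smallest p. Members and lists were chosen with earlier results of these data known. Per the series' design text the replicates were independent and biological. Chi-square per degree of freedom between replicates was 1.24 to 1.58, above the value for sampling noise alone. The use of the identifiers is not known, and the source of this excess was not tested.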

Additional observations from a re-analysis of the deposited data

How the results depend on the processing

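No member of the pathway passed in any of the 14 alternatives, with 37 to 44 members tested. Their lowest adjusted p was 0.428, without amiRNA-VQ1,10 replicate 3. Over all genes 13 passed, against 92 with no filter, 6 with a strict filter, 6 by DESeq2, 8 by limma-voom and 10 to 37 with a library left out. Of the further pathway genes 0 passed, against 4 with no filter (MBP1, BGLU18, BGLU30 and SDI1) and 0 to 1 with a library left out. With the replicate block 16 genes passed, 0 of them members, and the lowest adjusted p of a member was 0.793. Same-numbered libraries did not deviate together (correlations -0.0065, -0.025 and -0.032), and no Col-0 library correlated best with its own number.

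Of the uncalled fold changes, that of GSTF9 turned to -0.0058 with total counts. With a library left out GSTF9 ranged from -0.022 to 0.049, MYB28 from -0.099 to 0.069, GGP1 from -0.063 to 0.0043, SOT16 from -0.013 to 0.056 and GTR2 from -0.29 to 0.13. Role medians with a library left out ranged from -0.099 to 0.069 for regulators, from 0.0016 to 0.051 for chain elongation, from -0.19 to -0.032 for the aliphatic core, from -0.085 to -0.013 for the indolic core, from 0.029 to 0.078 for the shared enzymes, from -0.37 to 0.051 for side chains, from -0.30 to 0.025 for transport and from 0.056 to 0.069 for breakdown. Those of regulators, side chains and transport changed sign. The members with the smallest p ranged from -0.37 to -0.16 (FMOGS-OX3), from -0.41 to -0.14 (ESP), from -0.24 to -0.078 (GSTU20), from 0.11 to 0.22 (TGG1) and from 0.17 to 0.40 (MAM3). Without organelle genes the pathway's share of counts was 0.912%, 0.868% and 0.928% in Col-0 and 0.903%, 0.862% and 0.908% in amiRNA-VQ1,10. The cause of these shifts was not tested. Depth limits MYB76, MYB51, MYB122 and CYP81F2, which had too few counts to test, and AOP3 had 0 counts in every library.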
